A study of Rattus norvegicus with 63 samples.

Results

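The arrays described here are the 4 amygdala arrays of rats that had no access to cocaine, out of 63 arrays in the series and 21 arrays of rats without access. They were defined by their labels alone (amygdala, no access), with no cut on measured values, but earlier results of these data were known at that choice. They were set against 17 other no access arrays, as the mean of 5 region means. The 17 were 4 of the nucleus accumbens, 4 of the lateral hypothalamus and 3 of the septum. A further 3 were of the ventral tegmental area and 3 of the medial prefrontal cortex. The study profiled these 6 dissected brain regions of rats on Affymetrix rat neurobiology arrays after daily intravenous self-administration of cocaine at 0.25 mg per injection for 0 h (drug-naive controls, called no access here), 1 h (short access) or 6 h (long access), with 8 rats in each access group. The labels used here give no strain, sex or age, no dissection boundaries, and no statement of which rats, or how many, went into an array. The p-values below therefore measure only the spread between these arrays, which may be in part technical.

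The amygdala is a group of nuclei in the temporal lobe that ties sensory cues to emotional value and takes part in fear, stress and relapse to drug seeking. Its basolateral nuclei resemble cortex and are built mainly of glutamatergic principal neurons, while its central and medial nuclei resemble striatum and hold GABAergic neurons rich in neuropeptides. A dissected block holds all of these together with glia, vessels and fibre tracts, so that in bulk RNA fewer cells of a type and less RNA per cell cannot be told apart.

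Signal was read as log2 of the deposited intensity after each array had been rescaled to a common trimmed mean, with values under 32 set to that floor (5 on the log2 scale), and 1192 probe sets that were not at the floor on all 21 arrays were tested. The amygdala arrays varied more than those of most regions: the median SD over 726 probe sets was 0.27 for the amygdala, 0.37 for the medial prefrontal cortex and between 0.14 and 0.20 for the other 4 regions. Amygdala array 3 had the highest 3' minus 5' actin difference of its region (0.62, against 0.16 to 0.26 on the other amygdala arrays) and a high antisense control signal (7.98, against 6.40 to 6.77), and medial prefrontal cortex array 3 had an actin difference of 1.93. The lateral hypothalamus arrays stood apart by an antisense control signal of 7.84 to 8.33. Counts are therefore also given without these arrays.

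In the amygdala 44 probe sets were higher than the mean of the 5 other regions, which is 3.69% of those tested, and 36 were lower, which is 3.02% (limma, Benjamini-Hochberg adjusted p under 0.05 and at least 2-fold). The 44 stand for 33 named genes and 3 probe sets without a gene symbol, and the 36 for 26 named genes and 2 without a symbol. At any size of difference, 155 probe sets (13%) were higher and 141 (11.8%) lower, and the median difference over all probe sets tested was 0.02 on the log2 scale. Without the lateral hypothalamus 28 were higher and 28 lower, without the ventral tegmental area 24 and 16, and without amygdala array 3 and medial prefrontal cortex array 3 there were 46 and 32. The genes with the largest positive differences included Nptxr, Itpka, Hrk, Ptk2b and Nrgn, which are expressed in forebrain neurons. Those with the largest negative differences included the myelin gene Mog (-2.01), Enpp2 (-1.86), Slc18a2 of monoamine neurons (-1.68) and the potassium channel gene Kcnj10.

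Nptxr, Itpka and Hrk, the 3 genes proposed as markers of these arrays with earlier results of the data known, had the largest positive differences of all genes named here. Nptxr encodes the neuronal pentraxin receptor, a synaptic membrane protein that gathers AMPA receptors at excitatory synapses. Its log2 signal on the 4 amygdala arrays was 12.32, 12.46, 13.10 and 12.69, while the 17 other arrays ran from 7.84 over a median of 9.10 to 12.42. The amygdala thus overlapped with 1 other array, array 3 of the medial prefrontal cortex, whose 3 arrays were at 11.72, 11.91 and 12.42, and lay above every array of the other 4 regions. Against the mean of the 5 regions Nptxr was higher by 2.96 (SE 0.15, adjusted p = 3.88e-11), a 7.78-fold difference. Against the nucleus accumbens the difference was 4.22 (SE 0.19), against the septum 2.09 (SE 0.21) and against the medial prefrontal cortex 0.63 (SE 0.21, adjusted p = 0.0499), which is under 2-fold. A further Nptxr probe set was higher by 2.43 (SE 0.22, adjusted p = 1.05e-07), and the last one, of low signal (5.47 to 6.49 on the amygdala arrays), differed by 0.24 (SE 0.29, adjusted p = 0.622). The further probe set did not differ from the medial prefrontal cortex at the threshold (0.47, SE 0.30, adjusted p = 0.328). Its cortex arrays were at 11.23, 11.74 and 9.80, and its amygdala arrays at 10.94 to 11.81, so that the overlap was wider there.

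Itpka, the inositol trisphosphate 3-kinase A of dendritic spines, was at 10.14, 10.45, 10.31 and 10.08 on the amygdala arrays. All 4 lateral hypothalamus and all 3 ventral tegmental area arrays were at the floor, the 3 septum arrays at 9.43 to 9.53, the 4 nucleus accumbens arrays at 10.07 to 10.63 and the 3 medial prefrontal cortex arrays at 10.42 to 10.71. The difference from the mean of 5 regions was 2.18 (SE 0.10, adjusted p = 4.36e-12), and its size depends on the floor, since 2 of the 5 regions were at it. Between the amygdala and the nucleus accumbens the difference was -0.02 (95% interval -0.28 to 0.23), and to the medial prefrontal cortex it was -0.35 (95% interval -0.63 to -0.07, adjusted p = 0.0894). Hrk, a BH3-only member of the BCL-2 family that promotes apoptosis of neurons, was at 8.21, 8.31, 8.95 and 8.64 in the amygdala. The nucleus accumbens arrays, at 7.95 to 8.24, overlapped with the lowest of these, and the ventral tegmental area arrays were all at the floor. Hrk was higher than the mean of 5 regions by 1.97 (SE 0.20, adjusted p = 6.38e-07). It was higher than in the medial prefrontal cortex by 0.91 (SE 0.28, adjusted p = 0.0364), while the difference from the nucleus accumbens was 0.40 (95% interval -0.15 to 0.94). Of the other 3 Hrk probe sets, those at 7.62 or more on the amygdala arrays were higher by 1.26 and 1.05, and a probe set near the floor differed by -0.19 (adjusted p = 0.524). The 2 that were higher differed from the medial prefrontal cortex by 0.31 (adjusted p = 0.388) and 0.60 (adjusted p = 0.272). From the nucleus accumbens they differed by 0.88 (adjusted p = 0.00372, under 2-fold) and 0.73 (adjusted p = 0.132). Which of these 2 regions lay nearer to the amygdala thus differed between Hrk probe sets.

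**Figure D1:**
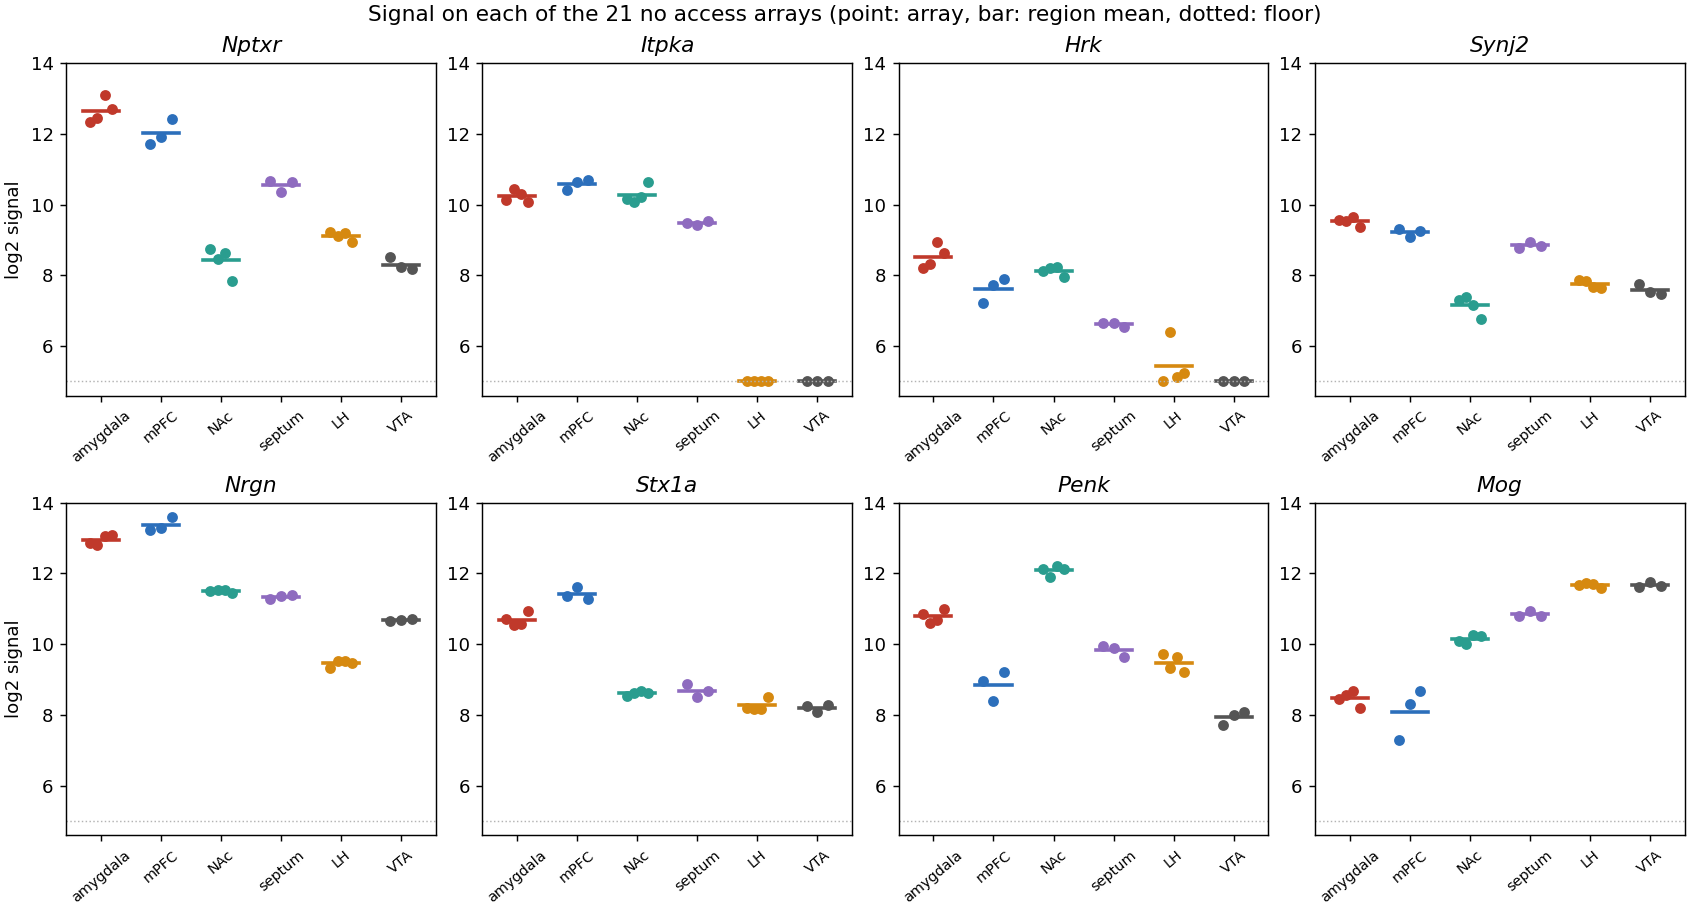
Log2 signal of 8 genes on each of the 21 no access arrays, by region (mPFC, medial prefrontal cortex; NAc, nucleus accumbens; LH, lateral hypothalamus; VTA, ventral tegmental area); points are arrays, bars are region means and the dotted line is the floor of 5. Nptxr was at 12.32 to 13.10 in the amygdala and at 11.72 to 12.42 in the medial prefrontal cortex, Itpka was at the floor in the lateral hypothalamus and ventral tegmental area, and Mog was lower in the amygdala (8.19 to 8.69) than in every region but the medial prefrontal cortex.

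Nptx2, an activity-regulated secreted pentraxin that binds AMPA receptors, was the gene with the only probe set higher in the amygdala than in each of the 5 regions (1 of 1192 tested, 0.0839%). No probe set was lower than each of the 5 (0%). On this probe set the amygdala arrays were at 9.26, 9.23, 9.65 and 9.27, and the 17 others ran from 6.30 over a median of 7.20 to 8.95, with no overlap. The smallest of the 5 differences were those from the medial prefrontal cortex, 1.01 (SE 0.31, adjusted p = 0.0378), and from the lateral hypothalamus, 1.08 (SE 0.29, adjusted p = 0.00657), and the mean of 5 regions was exceeded by 1.89 (SE 0.23). The other Nptx2 probe set, which has the smaller p, was at 9.25, 9.15, 9.43 and 8.84, was higher than the mean by 1.23 (SE 0.12, adjusted p = 2.07e-07), and did not pass against the medial prefrontal cortex (0.20, SE 0.16) or the lateral hypothalamus (0.34, SE 0.15). The call against every region thus held on 1 of the 2 probe sets of the gene. It was also lost (0 probe sets) when any of the 4 amygdala arrays was left out, when array 1 or 3 of the lateral hypothalamus or array 1 or 2 of the medial prefrontal cortex was, and with quantile normalization, with a replicate block or with all 63 arrays in 1 fit.

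The stretches of 250 bases before the annotated start of Nptx2 and of Hrk, genes higher in the amygdala, are shown as examples. They come from RefSeq (GRCr8), on the minus strand at chr12:15162046-15162295 for Nptx2 and chr12:44070562-44070811 for Hrk, and capitals mark matches on either strand to GGGCGG, the GC box, and to TGACG, the core of the cyclic AMP response element.
Nptx2: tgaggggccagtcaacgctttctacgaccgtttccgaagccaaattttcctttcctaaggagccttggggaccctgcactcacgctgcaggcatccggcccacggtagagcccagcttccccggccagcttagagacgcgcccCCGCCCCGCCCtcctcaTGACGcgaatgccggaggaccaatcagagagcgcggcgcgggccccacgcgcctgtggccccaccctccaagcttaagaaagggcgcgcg
Hrk: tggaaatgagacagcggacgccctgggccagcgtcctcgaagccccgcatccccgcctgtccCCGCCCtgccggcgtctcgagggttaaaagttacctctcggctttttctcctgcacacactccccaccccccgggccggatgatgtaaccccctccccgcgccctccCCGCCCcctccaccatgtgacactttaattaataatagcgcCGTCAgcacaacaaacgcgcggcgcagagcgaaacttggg
Nptx2 has 2 overlapping GC box matches on the reverse strand and a TGACG match at position -90, and Hrk has 2 GC box matches and a TGACG match on the reverse strand at position -40. Neither stretch holds CAGCTG (an E box) or TATAAA. The GC content is 66.0% for Nptx2 and 63.6% for Hrk. Over all 33469 promoters of the same length in the table, 30.5% hold a GC box and 18.2% hold TGACG, and over the 531 array genes tested here that have a promoter in it the shares are 50.9% and 24.7%. Of the 21 genes higher in the amygdala with a promoter in the table, 11 hold a GC box and 9 hold TGACG, and of the 21 lower genes 12 and 5 do. CAGCTG is in 11.97% and TATAAA in 12.9% of all promoters, in 13.8% and 10.9% of those of the array genes, and each is in 1 of the 21 higher and 2 of the 21 lower genes. These matches are descriptions of letters and were not tested.

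Of all 1192 probe sets, 3 (0.252%) had all 4 amygdala arrays above all 17 others, and 0 (0%) had all 4 below. Besides that of Nptx2 they were those of Synj2 and Kcnh7. Synj2, synaptojanin 2, is a phosphoinositide phosphatase of endocytosis. It was at 9.56, 9.54, 9.64 and 9.37 in the amygdala and at 6.77 to 9.31 elsewhere, with a median of 7.75, and the nearest arrays were those of the medial prefrontal cortex (9.08 to 9.31). Its difference from the mean of 5 regions was 1.42 (SE 0.10, adjusted p = 5.7e-09), and that from the medial prefrontal cortex was 0.31 (SE 0.14, adjusted p = 0.155). Kcnh7, an ERG-type potassium channel that is named here only after its values were seen, was at 6.65 to 6.84 in the amygdala and at 5.00 to 6.54 elsewhere, a difference of 0.61 (SE 0.20, adjusted p = 0.0262).

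Genes listed for principal neurons of cortex and basolateral amygdala had the highest median difference of the 26 gene lists. Of 19 such genes tested, 8 were higher by at least 2-fold (Nptxr, Itpka, Ptk2b, Nrgn, Stx1a, Ctxn1, Hrk and Nptx2), 14 were higher at any size and 0 were lower. Their median difference was 0.83, beside 0.04 over all 685 genes tested with 1 probe set each. Of those 685, 27 (3.94%) were higher and 20 (2.92%) lower. The lists were chosen with earlier results of these data known, and so were Nptxr, Itpka and Hrk as markers. The count of 8 is therefore a description and no independent support. The count of 8 was also found without the lateral hypothalamus and without the 2 arrays of high actin difference, and it was 7 without the ventral tegmental area. The summed signal of the 19 genes was 42930 to 49920 on the amygdala arrays, below or just above the lowest of the medial prefrontal cortex arrays (49670 to 65740), above all nucleus accumbens arrays (38540 to 41510), and several times those of the lateral hypothalamus (12400 to 13110) and ventral tegmental area (10360 to 10380). Against the medial prefrontal cortex 0 of the 19 were called in either direction, and against the nucleus accumbens 5 were higher and 1, Hpca, was lower.

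The members of this group differed in the regions from which the amygdala stood apart. Ptk2b, a calcium-activated tyrosine kinase of the focal adhesion family, was at 10.95, 11.12, 10.87 and 11.42 in the amygdala, 1.88 (SE 0.19) above the mean of 5 regions. Its amygdala arrays overlapped with those of the nucleus accumbens and medial prefrontal cortex, and the difference rested on the lateral hypothalamus (3.98, SE 0.24) and the ventral tegmental area (4.27, SE 0.26). Nrgn, neurogranin, which holds calmodulin in spines, was at 12.85, 12.82, 13.06 and 13.08, higher by 1.68 (SE 0.07, adjusted p = 1.14e-12). It was above every other region except the medial prefrontal cortex, where it was still higher, so that the amygdala minus cortex difference was -0.42 (SE 0.09, adjusted p = 0.004). Stx1a, the syntaxin of synaptic vesicle fusion, stood in the same order, at 10.72, 10.54, 10.57 and 10.92, with a difference of 1.65 (SE 0.09) from the mean of regions and of -0.74 (SE 0.12, adjusted p = 0.000388) from the medial prefrontal cortex. Ctxn1, cortexin, a membrane protein of cortical neurons, was higher by 1.49 (SE 0.13), with arrays at 11.94 to 12.67 that overlapped with those of the nucleus accumbens (mean 12.42) and medial prefrontal cortex (mean 12.77).

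Other synaptic, receptor and signalling genes that were higher included Chrm1, the M1 muscarinic receptor, by 1.34 (SE 0.37), Kcnj4, an inward rectifier potassium channel, by 1.23 (SE 0.21), Syn2, synapsin II, by 1.16 (SE 0.09), and Kcnh3, an ELK-type potassium channel, by 1.10 (SE 0.12). The brightest Syn2 probe set was higher at under 2-fold and was not called. Chrm1 was at 7.85, 8.03 and 8.06 on 3 amygdala arrays and at 6.27 on array 3. It was not called without amygdala array 1, 2 or 4. Grm2, a presynaptic metabotropic glutamate receptor, was higher by 1.08 (SE 0.23), and Camk2d, the delta subunit of calcium/calmodulin-dependent kinase II, by 1.02 (SE 0.12), which was under 2-fold without amygdala array 3. Of the activity-induced transcription factors, Nr4a3 was higher by 1.11 (SE 0.17) and Egr1 by 1.02 (SE 0.11), and both were lower in the amygdala than in the medial prefrontal cortex in value (-0.56 and -0.76). For Nr4a3 that difference did not pass (adjusted p = 0.118), and for Egr1 it passed at under 2-fold (adjusted p = 0.00142). The brightest Egr1 probe set was higher than the mean of 5 regions at under 2-fold and was not called. Without the lateral hypothalamus the differences from the mean were under 2-fold for Nr4a3 (0.93) and Egr1 (0.68), as they were without the ventral tegmental area (0.79 and 0.51). Of 28 calcium, calmodulin and kinase genes 3 were called higher and 12 were higher at any size. None of 17 AMPA, NMDA and kainate receptor subunits was called by the brightest probe set of each gene, with 4 higher and 1 lower at any size.

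Neuropeptide genes were higher in the amygdala in 4 of 12 cases (Oxt, Avp, Penk and Cck) and lower in 1 (Tac1), with a median of 0.66. Without amygdala array 3 and medial prefrontal cortex array 3, and likewise without the lateral hypothalamus, 3 were higher, since Cck was then under 2-fold. Without the ventral tegmental area 2 were higher, Oxt and Cck, with Penk at 0.72. Penk, which encodes the enkephalin precursor, was at 10.85, 10.60, 10.69 and 10.98 in the amygdala, between the nucleus accumbens (11.90 to 12.22) and every other region (7.71 to 9.96), with no overlap on either side. It differed from the mean of 5 regions by 1.14 (SE 0.12), from the medial prefrontal cortex by 1.92 (SE 0.17) and from the nucleus accumbens by -1.31 (SE 0.16, adjusted p = 4.7e-06). Cck, the cholecystokinin precursor made by cortical and some dopamine neurons, was at 10.76, 11.10, 11.34 and 11.07. That was above the nucleus accumbens, lateral hypothalamus and septum (8.04 to 9.05), and below the ventral tegmental area (11.54 to 11.83) and the medial prefrontal cortex (12.66 to 12.80). Its difference from the mean was 1.05 (SE 0.10) and from the medial prefrontal cortex -1.64 (SE 0.14, adjusted p = 4.03e-07).

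Tac1, the precursor of substance P, was at 7.19, 6.91, 7.14 and 6.90 in the amygdala and at 10.46 to 10.63 in the nucleus accumbens, with no overlap. The difference from the mean was -1.01 (SE 0.17, adjusted p = 0.000236) and from the nucleus accumbens -3.52 (SE 0.22). Without the nucleus accumbens Tac1 differed by -0.38 (adjusted p = 0.202), and its differences from the septum (0.43) and the medial prefrontal cortex (0.09) did not pass. Npy and Sst, peptides of interneurons, were higher by 0.76 (SE 0.17, adjusted p = 0.00229) and 0.69 (SE 0.10, adjusted p = 5.55e-05), under 2-fold. Crh, the stress peptide of the central nucleus, was at 6.44, 6.32, 5.81 and 6.25, a difference of 0.38 (SE 0.15, adjusted p = 0.0696) that did not pass.

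Oxt and Avp, the precursors of oxytocin and vasopressin, varied widely between the amygdala arrays. Oxt was at 9.91, 8.59, 6.90 and 10.35, while the lateral hypothalamus arrays were at 13.07 to 13.25 and all other arrays were at 5.00 to 7.28. Amygdala array 3 thus fell among the arrays of regions with low signal, and the other 3 lay between these and the lateral hypothalamus. The difference from the mean of 5 regions was 1.45 (SE 0.39, adjusted p = 0.0099). Its parts ran from -4.22 (SE 0.50) for the lateral hypothalamus to 3.45 (SE 0.54) for the medial prefrontal cortex. These SEs pool the spread of all 6 regions. The SD of Oxt was 1.55 in the amygdala and 0.09 to 0.51 in the other regions, so the SE and p understate the amygdala spread. Oxt was not called when amygdala array 1 or array 4 was left out, nor without the nucleus accumbens, septum or medial prefrontal cortex. Avp followed the same order, at 10.37, 9.28, 7.84 and 10.29 on the probe set with the smaller p, with a difference of 1.49 (SE 0.32, adjusted p = 0.00186). Its other probe set was higher by 1.28 (SE 0.39). The amygdala SDs of these Avp probe sets were 1.18 and 1.59, and the same limit holds for them.

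In the amygdala of the cocaine groups the short access arrays were spread widely and the long access arrays were close together. Oxt was at 8.19, 5.82, 11.52 and 8.72 with short access and at 10.19, 10.10, 10.08 and 10.63 with long access, and Avp at 9.62, 8.04, 12.12 and 9.39 and at 10.46, 10.13, 10.41 and 10.64. Over the 12 amygdala arrays the 2 genes moved together, with Pearson's r of 0.951 (permutation p = 2e-05) and Spearman's rho of 0.895 (permutation p = 0.0003). Without the 2 arrays farthest from the median of Oxt r was 0.912. With the other Avp probe set r was 0.927 and rho 0.909 (permutation p = 4e-05 and 0.0001), and these 2 relations were the only ones computed. The permutations shuffled the 12 arrays across access groups, as if these could be exchanged. The 12 include the 4 no access arrays whose shared order is described above. The 4 arrays within each access group are too few for a value of their own. Gal, which encodes galanin and is named here after its values were seen, was at 6.29, 5.00, 5.01 and 5.00 in the amygdala without access, at 5.53 to 7.44 with short and at 5.00 to 6.84 with long access.

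**Figure D2:**
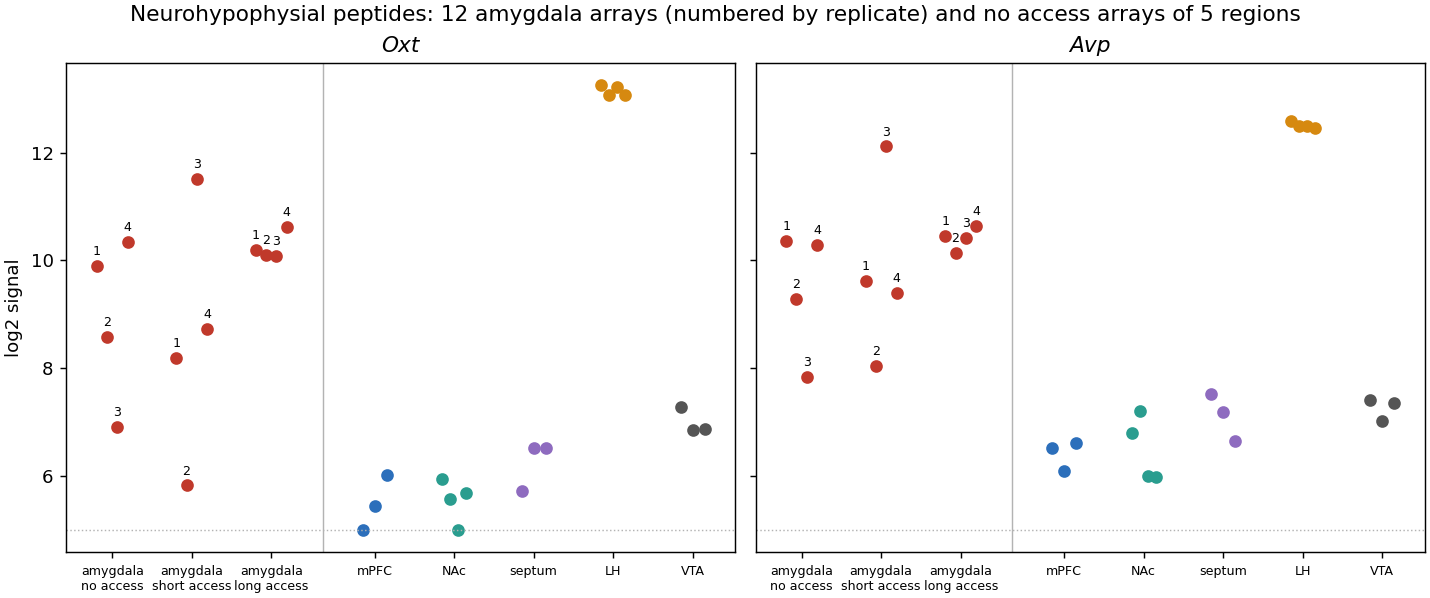
Log2 signal of Oxt and Avp on 12 amygdala arrays (numbered by replicate within no, short and long access) and, right of the line, on the no access arrays of the 5 other regions; the dotted line is the floor of 5. Oxt ran from 6.90 to 10.35 on the no access amygdala arrays, from 5.82 to 11.52 with short access and from 10.08 to 10.63 with long access, below the lateral hypothalamus at 13.07 to 13.25.

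Genes of dopamine neurons were lower in the amygdala, a difference carried by the ventral tegmental area. Of 8 midbrain dopamine neuron genes 5 were lower by at least 2-fold (Th, Ddc, Slc6a3, Sncg and Slc18a2) and 7 at any size, with a median of -1.29, and without the ventral tegmental area 0 were called. Th, the rate-limiting enzyme of catecholamine synthesis, was at 6.79, 6.72, 6.91 and 7.44, beside 13.47 to 13.65 in the ventral tegmental area and 8.96 to 9.16 in the lateral hypothalamus. Slc18a2, the vesicular monoamine transporter, was at the floor on all 4 amygdala arrays and differed by -1.68 (SE 0.17) from the mean of regions, a size that the floor limits. Slc6a3, the dopamine transporter, differed by -1.07 (SE 0.22) from the mean and by -6.30 (SE 0.30) from the ventral tegmental area, and by 0.23 from the mean of the 4 regions left without it, a reversed sign that did not pass. The summed signal of the 8 genes was 482.8 to 689.9 in the amygdala and 21800 to 23630 in the ventral tegmental area.

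Slc6a4, the serotonin transporter, was the exception, at 7.98, 7.62, 7.79 and 7.63 in the amygdala, while the ventral tegmental area was at 7.21 to 7.56 and the other arrays at 5.00 to 7.67. It was higher than the mean of 5 regions by 1.71 (SE 0.39, adjusted p = 0.00296) and differed from the ventral tegmental area by 0.41 (SE 0.54, adjusted p = 0.612). The other Slc6a4 probe set was at the floor on all 4 amygdala arrays and differed by -0.64 (adjusted p = 0.0958), so that the 2 probe sets of the gene disagreed.

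Most markers of striatal projection neurons were lower in the amygdala than in the nucleus accumbens, and some were higher than in the medial prefrontal cortex. Of 8 such genes 7 were lower than in the nucleus accumbens and 0 higher, where 31 of the 685 genes were lower and 31 higher, and 3 were higher than in the medial prefrontal cortex (Penk, Adora2a and Drd2), where 27 of 685 were. Adora2a, an adenosine receptor of indirect pathway neurons, was at 8.63, 8.28, 8.60 and 8.16, with a difference of -2.32 from the nucleus accumbens and of 1.26 from the medial prefrontal cortex. Drd1 was at 8.59, 8.02, 8.27 and 8.08, with a difference of -2.59 from the nucleus accumbens and of 0.72 (adjusted p = 0.0554) from the medial prefrontal cortex. A Drd1 probe set of lower signal, at 5.73 to 6.37 in the amygdala and at the floor in the medial prefrontal cortex, was higher than in that region by 1.05 (adjusted p = 0.0055). Drd2 was at 7.27, 7.03 and 7.36 on 3 amygdala arrays and at the floor on array 3, with a difference of -3.29 from the nucleus accumbens. Rxrg, a retinoid receptor of striatal neurons, was at 7.38, 6.80, 6.60 and 7.36, below the nucleus accumbens (mean 8.23) and above the lateral hypothalamus, septum and ventral tegmental area, whose arrays were all at the floor.

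Myelin genes were also lower in the amygdala. Of 6 oligodendrocyte markers 4 were lower by at least 2-fold (Mog, Mbp, Tf and Cnp), all 6 at any size, and the median was -1.01. Mog, a glycoprotein on the outside of myelin, was at 8.46, 8.57, 8.69 and 8.19, against 10.02 to 11.76 in the 4 regions other than the medial prefrontal cortex (7.29 to 8.67), and differed from the mean by -2.01 (SE 0.15, adjusted p = 8.29e-09). The amygdala was below those 4 regions without overlap and overlapped with the medial prefrontal cortex. The count of 4 was 1 without the lateral hypothalamus, 1 without the ventral tegmental area and 2 without the 2 arrays of high actin difference, with Mog called each time. The summed signal of the 6 genes was 13160 to 15700 in the amygdala, 6971 to 10010 in the medial prefrontal cortex, 23490 to 26780 in the nucleus accumbens, 33330 to 37030 in the septum, 48100 to 54450 in the lateral hypothalamus and 49080 to 56640 in the ventral tegmental area. The part of oligodendrocyte content in the other differences was not tested.

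Among genes of other non-neuronal cells some were higher and some lower. Kcnj10, the potassium channel of astrocytes, was the only called gene among 8 astrocyte markers, with a difference of -1.5 (SE 0.37) and signals of 7.11, 8.46, 5.00 and 7.08 on the amygdala arrays, and it was not called without array 3. Enpp2, autotaxin, a secreted enzyme of choroid plexus and oligodendrocytes, was at 8.50, 8.75, 8.61 and 8.70 and differed by -1.86 (SE 0.11), with the septum at 11.98 to 12.31. Igf2, a growth factor of meninges and choroid plexus, was higher by 1.12 (SE 0.28) at 11.17, 11.12, 12.06 and 11.83, and below 2-fold without array 3. Another Igf2 probe set, at 6.80 to 7.33 in the amygdala, differed by 0.43 (adjusted p = 0.222) and was not called. Slc6a13, a GABA transporter of the same tissues, was higher by 1.34 (SE 0.32) at 7.60, 7.40, 8.50 and 8.21. The summed signal of the 3 choroid plexus and ependymal markers tested (Igf2, Igfbp2 and Enpp2) was 3313 to 5984 in the amygdala, 908.2 to 1785 in the medial prefrontal cortex and 11340 to 12320 in the septum. The part of these tissues was not tested. Of the 9 microglial and immune markers only Tgfb1 was called, at 7.06, 7.56, 5.00 and 7.62, and it was not called without array 1, 2 or 4. None of 4 vessel markers was called, and their summed signal of 1702 to 2876 overlapped with that of the nucleus accumbens (1709 to 2172).

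Other lower genes were channels, receptors, cytoskeletal and stress genes. Nefh, the heavy neurofilament subunit of large axons, was at 8.76, 8.49, 8.71 and 8.72, with a difference of -1.31 (SE 0.10), beside means of 8.47 in the nucleus accumbens, 8.77 in the medial prefrontal cortex and 12.12 in the ventral tegmental area. Kcna1, an axonal potassium channel, differed by -1.13 (SE 0.18), and by -0.99 (adjusted p = 0.000983), just under 2-fold, without array 3. The brightest Kcna1 probe set was lower at under 2-fold and was not called. Kcns3, a modulatory potassium channel subunit, differed by -1.18 (SE 0.23). Calcr, the calcitonin receptor, was at 5.03, 5.00, 5.06 and 6.44 and differed by -1.40 (SE 0.26), with the nucleus accumbens at a mean of 8.08. Hcrtr2, an orexin receptor, and P2rx2, an ATP-gated channel, were at 5.53 or less on all 4 amygdala arrays, with differences of -1.15 (SE 0.21) and -1.31 (SE 0.24). Casp2, an apoptotic protease, ran from 5.00 to 7.55 on the amygdala arrays (difference -1.37, SE 0.31), and Sod2, the mitochondrial superoxide dismutase, from 7.67 to 8.36 (difference -1.10, SE 0.24).

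**Figure D3:**
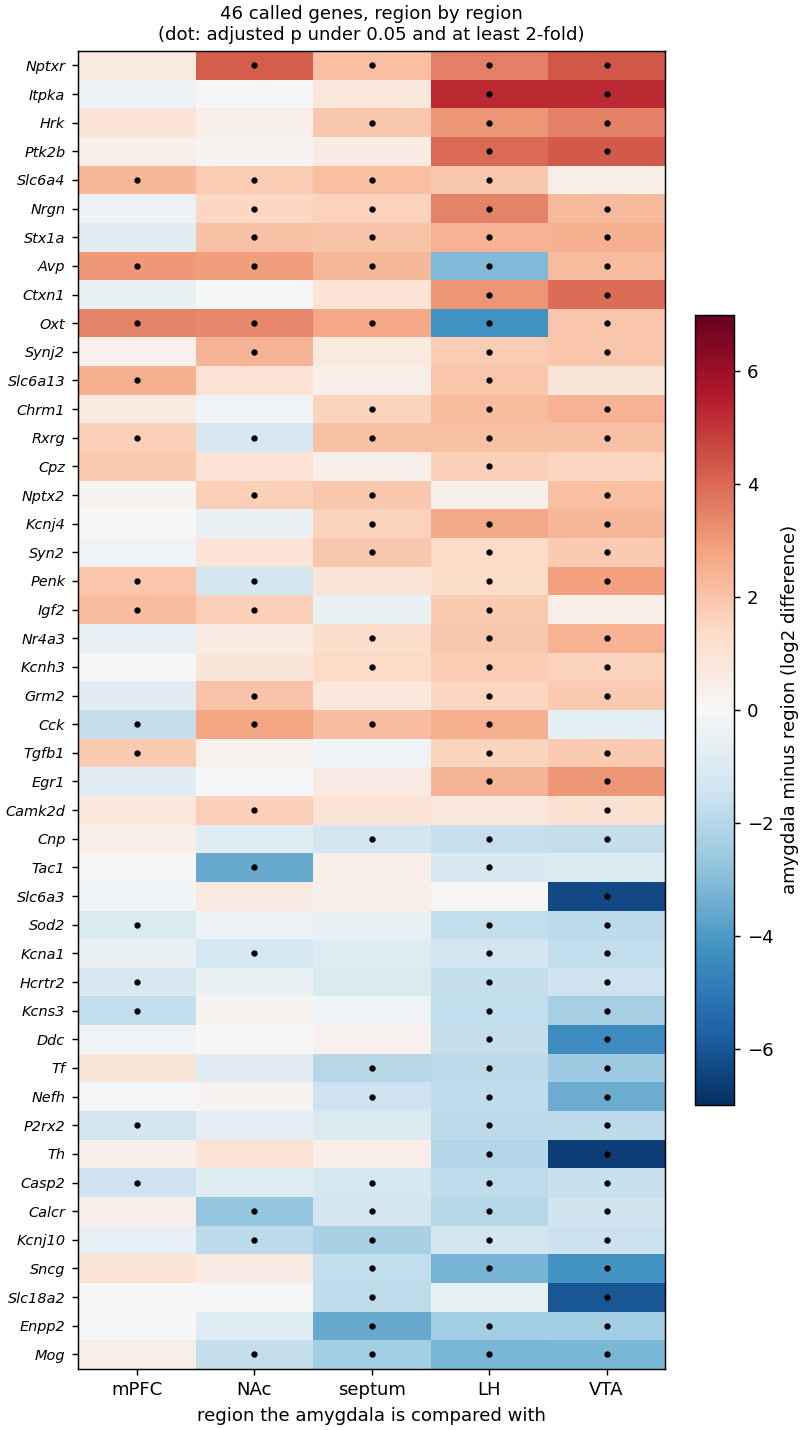
Log2 difference between the amygdala and each of 5 regions (columns) for the 46 named genes that were called against the mean of the regions, ordered by that difference from Nptxr (2.96) to Mog (-2.01); red is higher and blue lower in the amygdala, and dots mark adjusted p under 0.05 with at least 2-fold. The columns share the 4 amygdala arrays; Nptxr is palest in the medial prefrontal cortex column (0.63) and Hrk in the nucleus accumbens column (0.40), and the ventral tegmental area column is the deepest for Th (-6.59).

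Region by region, the number of probe sets that differed from the amygdala was smallest for the medial prefrontal cortex, 69 (5.79%), followed by the nucleus accumbens with 102 (8.56%), the septum with 121 (10.2%), the lateral hypothalamus with 187 (15.7%) and the ventral tegmental area with 240 (20.1%). These comparisons share the 4 amygdala arrays and differ in the spread and number of the other arrays, and the medial prefrontal cortex arrays had the highest median SD. By the median size of the difference over probe sets the nucleus accumbens was nearest (0.286), followed by the medial prefrontal cortex (0.301). The mean profile of the amygdala over the probe sets tested correlated with that of the medial prefrontal cortex at r = 0.966, with the septum at 0.953, the nucleus accumbens at 0.949, the lateral hypothalamus at 0.920 and the ventral tegmental area at 0.881, across genes, which are not independent replicates.

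Against the medial prefrontal cortex 45 probe sets (3.78%) were higher and 24 (2.01%) lower in the amygdala (32 and 27 with quantile normalization), and against the nucleus accumbens 47 (3.94%) were higher and 55 (4.61%) lower. The largest difference from the cortex was that of Oxt (3.45), followed among the named genes by Avp (3.04), Slc6a13 (2.48), Slc6a4 (2.35), Igf2 (2.17) and Penk (1.92). Vim, an intermediate filament of astrocytes and vessels, was higher by 1.52 (adjusted p = 0.00251), and Gabra3, a GABA-A receptor subunit, by 1.30 (adjusted p = 0.000232). The lowest against the cortex was Adra1d, an alpha-1 adrenergic receptor, at 5.00, 5.00, 5.51 and 5.00 in the amygdala and at the floor in the other regions but at a mean of 8.43 in the medial prefrontal cortex (difference -3.30, SE 0.12, adjusted p = 2.63e-13). The other Adra1d probe set, at 7.33 to 8.35 in the amygdala, differed from the cortex by -0.37 and was not called. Of genes named after their values were seen, Ncam1, a neural adhesion molecule, was higher than in the cortex by 2.48 on 1 probe set. That probe set was at 7.90 to 8.36 in the amygdala and at a mean of 5.65 (6.50, 5.46 and 5.00) in the cortex. The brightest Ncam1 probe set was not called higher than in the cortex, and was lower than the mean of 5 regions at under 2-fold. Nr4a1, an activity-induced transcription factor also named after its values were seen, was lower than in the cortex, with a difference of -1.35 (SE 0.19).

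**Figure D4:**
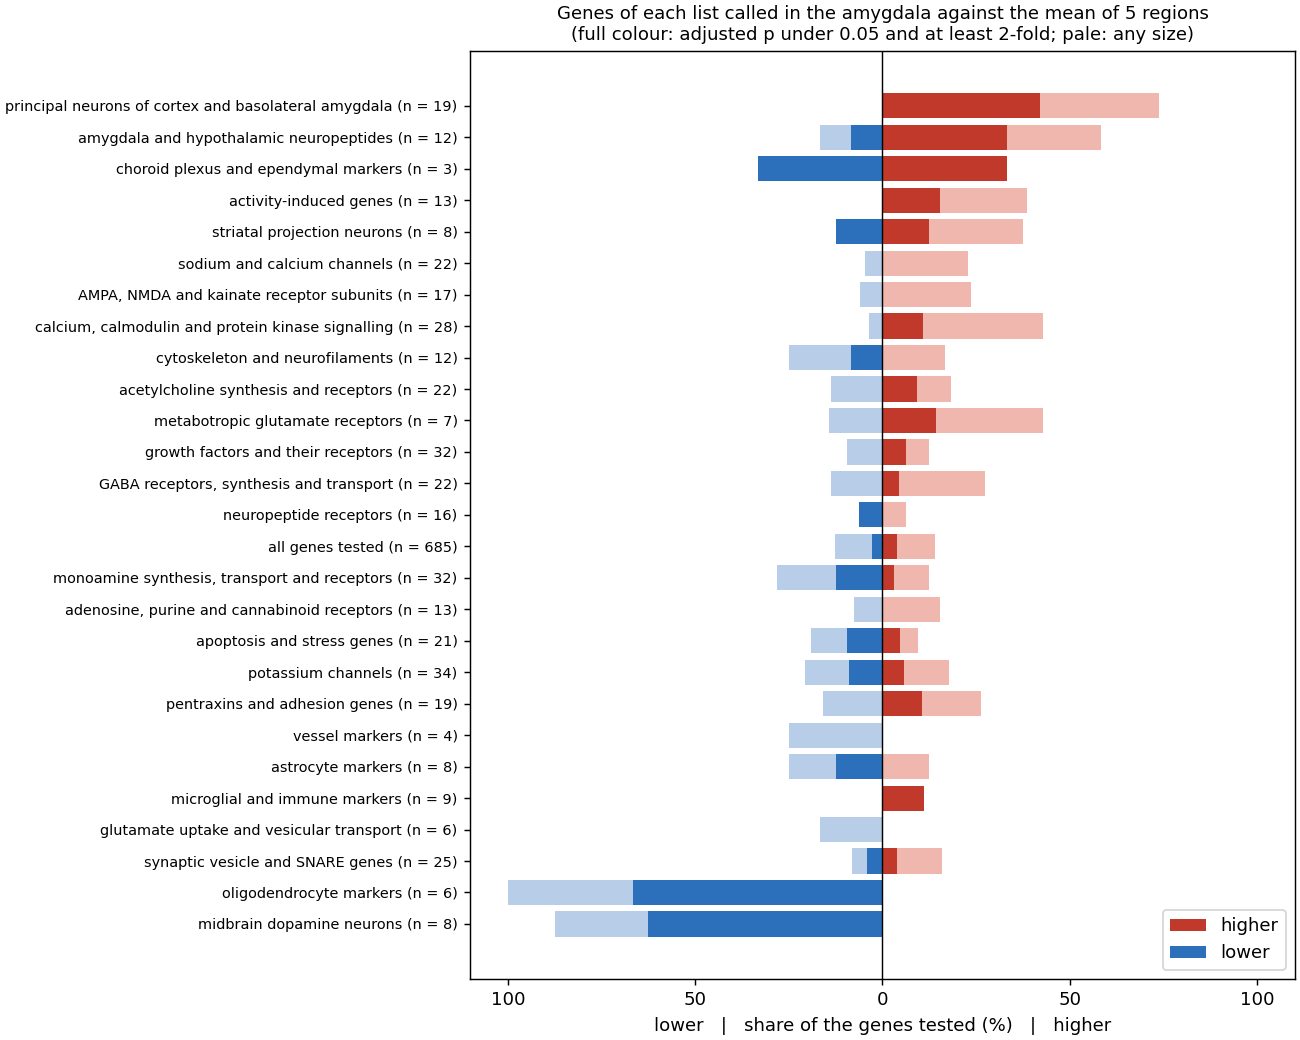
Share of the genes tested in each of 26 lists, and over all 685 genes, that were higher (right, red) or lower (left, blue) in the amygdala than the mean of 5 regions; full colour is adjusted p under 0.05 with at least 2-fold, pale colour any size, and lists are ordered by their median difference. Principal neuron genes (8 of 19 higher, median 0.83) are at the top end and midbrain dopamine neuron genes (5 of 8 lower, median -1.29) at the bottom end. Over all genes 3.94% were higher and 2.92% lower. The lists were chosen with earlier results of these data known.

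The same contrast was computed in the 21 short access and the 21 long access arrays, which the choice of genes had not used. With short access 40 probe sets (3.38%) were higher and 21 (1.78%) lower in the amygdala, and with long access 39 (3.29%) and 28 (2.36%), which was 33 and 36 with quantile normalization. Of the 44 probe sets higher without access, 31 were called higher again with short access (of 40 there), 28 with long access (of 39) and 24 with both. Of the 36 lower ones 18 were called lower again with short access (of 21), 21 with long access (of 28) and 17 with both. None was called in the opposite direction. The differences kept their sign in 43 and 41 of the 44 and in 34 and 35 of the 36, and across the 1159 probe sets tested in all 3 fits they correlated at r = 0.764 with short and r = 0.757 with long access, as a description over genes. Nptxr was higher by 2.76 with short and 2.72 with long access, Itpka by 2.23 and 1.95, Hrk by 1.96 and 2.13, and Mog differed by -1.38 and -1.44.

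Of the 27 named genes called higher, 20 were called again with short access, 17 with long and 16 with both. The 6 that were called in neither were Slc6a4 (0.73 and 0.35), Cpz (0.08 and -0.93), Igf2 (0.21 and -0.29), Nr4a3 (0.81 and 0.99), Grm2 (0.94 and 0.71) and Tgfb1 (0.81 and -0.05). Cpz, a carboxypeptidase, was at 7.49, 6.83, 8.20 and 8.25 without access (difference 1.26, SE 0.44, adjusted p = 0.0438) and was not called when any of amygdala arrays 1, 3 or 4 was left out. Of the 19 named genes called lower, 11 were called again with short, 11 with long and 10 with both. The 7 called in neither were Tac1, Sod2, Hcrtr2, Kcns3, Ddc, P2rx2 and Kcnj10, of which P2rx2 (-0.01 and -0.32) and Hcrtr2 (-0.07 and -0.33) were closest to 0 with short access together with Sod2 (-0.11 and -0.71). A call in one access group and not in another is no test of a change.

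**Figure D5:**
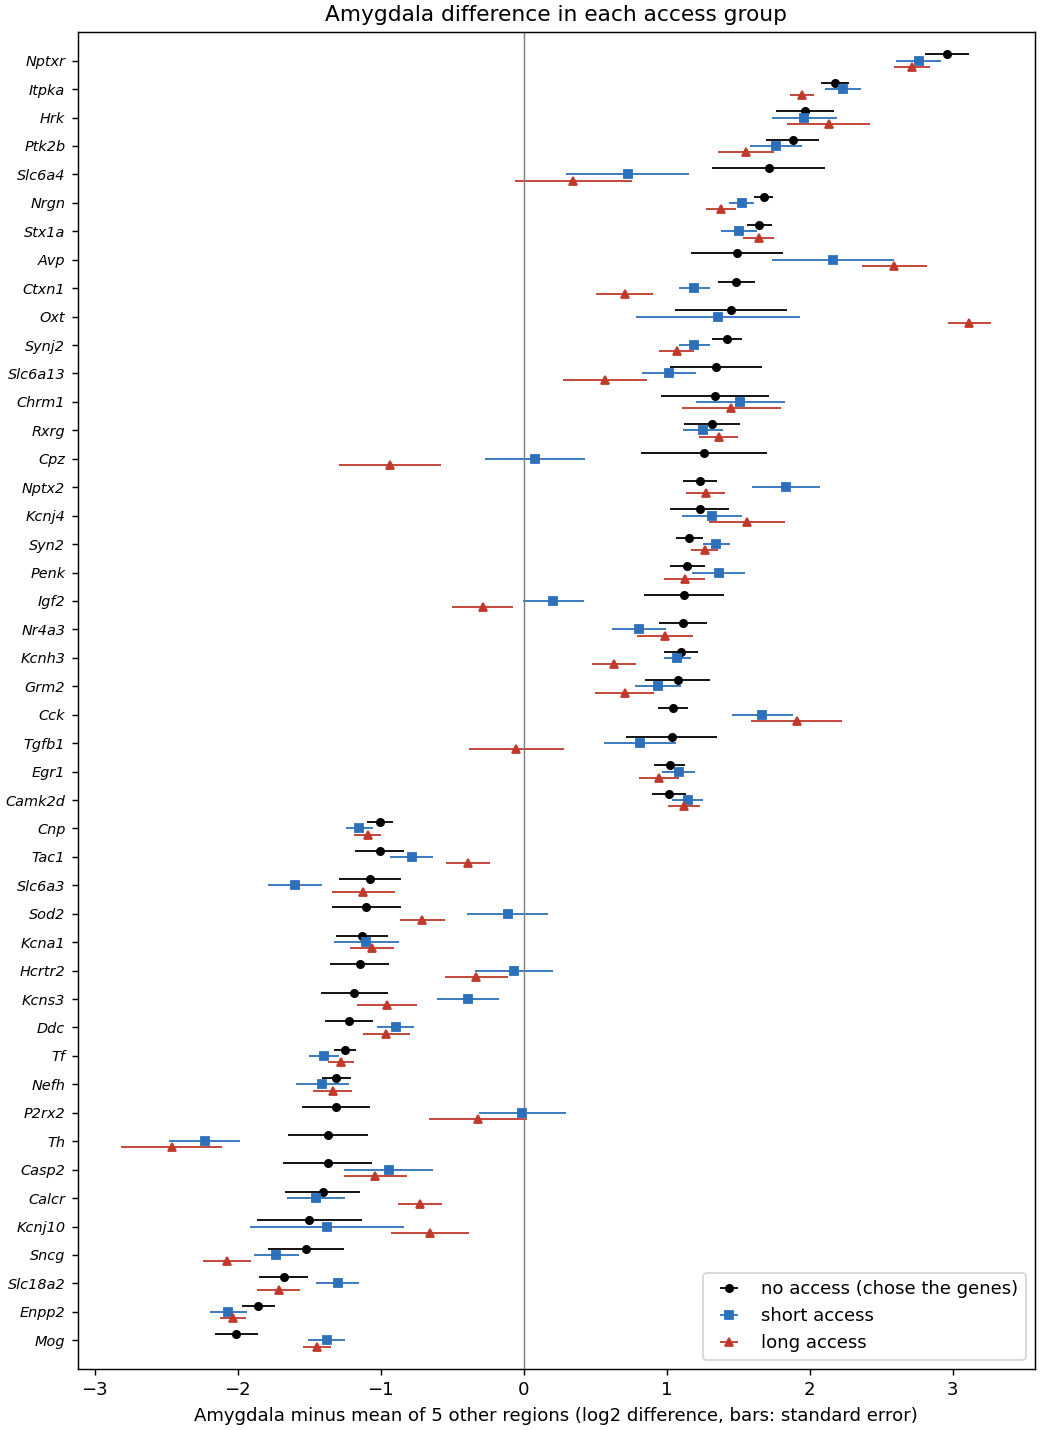
Log2 difference between the amygdala and the mean of 5 other regions for the 46 named genes, in the no access arrays that chose them and in the separate short and long access arrays; points are differences and bars standard errors. Nptxr stood at 2.96, 2.76 and 2.72, and the long access values of Cpz (-0.93), Igf2 (-0.29) and Tgfb1 (-0.05) lay below 0.

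The difference itself was tested in a fit of all 63 arrays in 18 groups. For short against no access 2 of 1211 probe sets (0.165%) passed at an adjusted p under 0.05, and 105 (8.67%) had an unadjusted p under 0.05. For long against no access 0 (0%) passed by limma, and 139 (11.5%) had an unadjusted p under 0.05. The 2 that passed were those of Adra2a, an alpha-2 adrenergic receptor, and Grin2d, an NMDA receptor subunit. For Adra2a the amygdala minus the mean of 5 regions was 0.86 without access, -0.75 with short and 0.57 with long access, an interaction of -1.61 (adjusted p = 0.0131). The amygdala mean was 6.72, 5.48 and 6.63 in turn, and that of the lateral hypothalamus 5.69, 7.32 and 7.44. For Grin2d the values were 0.07, -0.58 and -0.41, an interaction of -0.65 (adjusted p = 0.0493), while the lateral hypothalamus mean went from 8.18 to 9.20 and 9.37. The lateral hypothalamus arrays also differed between access groups in their antisense control signal. It was 7.84 to 8.33 without access, 6.73 to 7.09 with short and 6.55 to 6.87 with long access. The part of this array difference in the 2 interactions was not tested. Without the lateral hypothalamus 0 probe sets passed for short against no access, and leaving out 1 array moved that count between 0 (without amygdala array 2 of either group) and 5 (without amygdala no access array 1). For long against no access the count was 1 without amygdala no access array 4, 5 without amygdala long access array 3 and 9 without amygdala long access array 4.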

How the data were processed

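The table held the authors' deposited signal intensity per probe set on a linear scale for 63 arrays. The submitters' processing notes name MAS5, and its version and target are not given in the sources used here. RNA was labelled as biotinylated cRNA, per the labels' protocols. Of 1322 probe sets, 59 controls were left out, 1137 of the other 1263 had 1 gene symbol in the platform annotation, 8 had several and 118 had none, and 1132 were matched to RefSeq. No 2 arrays held identical values.

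Arrays were rescaled to a 2% trimmed mean of 500, set to a floor of 32 and log2 transformed. limma 3.58.1 in R 4.3.3 (lmFit, eBayes with an intensity trend) fitted the 21 arrays of an access group as 6 regions, adjusted by Benjamini-Hochberg over probe sets above the floor on at least 1 array (1192, 1183 with short and 1184 with long access), and all 63 arrays as 18 groups for the difference between access groups. A call needs an adjusted p under 0.05 and at least 2-fold. Each probe set has 1 spread shared by all regions of a fit. Where the amygdala arrays vary more than the others, the SE and p understate their spread. The fit was tested on simulated normal values with the same spread in all regions, so that test does not cover unequal spread. The number of arrays limits the precision, and there are no counts or depths.

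Genes were named by rule: the 15 largest differences in each direction, up to 10 genes higher or lower than each region, up to 4 members of each of 26 lists by p, and a set of markers, 103 genes in all, each by its probe set with the smallest p. Lists use the brightest probe set. The arrays, markers and lists were chosen with earlier results of these data known. Where same-numbered arrays of different regions were compared, their deviations correlated at a mean of 0.04 (-0.16 to 0.43), with 9 of 48 pairs over 0.1. Pairs with different numbers had a mean of -0.01, with 10 of 135 over 0.1. The labels do not say whether the numbers pair the arrays, and these values do not settle it. The main fit took the arrays as unpaired.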

Additional observations from a re-analysis of the deposited data

Results flagged for a closer look

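Among the named genes, 8 had an amygdala array without access that lay far from the other 3, by Dixon's criterion for groups of 4. Array 3 was the distant one in 6 of these genes. Chance marks about 1 in 20 groups of normally spread values away from the floor, and 103 genes were looked at. Chrm1 was at 6.27 on array 3 against 7.85 to 8.06 on the others, Slc1a3 at 8.13 against 6.49 to 6.73, and Drd2 at 5 (the floor) against 7.03 to 7.36. Adra1d (5.51), Chrna6 (5.22) and Scn7a (5.14) were just above the floor on array 3 and at it on the others. With the others at the floor, any value above it meets the criterion, so the stated rate does not hold for these genes. Chrne was at 6.14 on array 2 against 6.58 to 6.66, and Calcr at 6.44 on array 4 against 5 to 5.06. The amygdala contrast differed between short and no access for Adra2a (-1.61, adjusted p = 0.0131) and Grin2d (-0.65, adjusted p = 0.0493), by the interaction test in limma.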

How the results depend on the processing

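The 46 named calls kept their direction under every alternative but 1, Slc6a3 without the ventral tegmental area (0.23, adjusted p = 0.536). Of the 46, 24 stayed called without that region, 33 without the lateral hypothalamus and 39 without amygdala array 3.

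With 1 array left out in turn, the counts ran from 37 to 47 higher and 32 to 36 lower than the mean of regions, 94 to 116 against the nucleus accumbens, 178 to 201 lateral hypothalamus, 114 to 130 septum, 59 to 85 medial prefrontal cortex and 228 to 261 ventral tegmental area, 0 to 1 higher and 0 to 1 lower than each region, 59 to 69 with short and 58 to 78 with long access, and 0 to 5 (short) and 0 to 9 (long) for the difference between access groups.

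The replicate block gave 42 higher and 33 lower, and 0 higher than each region. It lost the calls of Cpz, Cnp and Tac1 and moved no other count by over 1.5 times. Whether the numbers pair the arrays is not known.

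Values as deposited gave 43 against the medial prefrontal cortex and 1 for the long access difference. Quantile normalization gave 0 higher than each region and 1 for the short access difference, which was 0 with no floor, 1 for probe sets with a mean of 100 in at least 1 region and 1 with array weights. Probe sets with a mean of 100 over all arrays, which are fewer, gave 23 lower, 43 against the medial prefrontal cortex and 0 for the short access difference. Array weights gave 1 lower than each region, and all 63 arrays in 1 fit gave 0 higher than each.

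Without cross-hybridising probe sets, also fewer, there were 22 higher and 18 lower, 50 against the nucleus accumbens, 88 lateral hypothalamus, 58 septum, 32 medial prefrontal cortex and 129 ventral tegmental area, 0 higher than each, 34 with short and 33 with long access and 1 for the short access difference. At 3-fold there were 11 higher and 4 lower, 48, 90, 44, 22 and 116 against the regions in the same order, 0 higher than each, and 18 and 14 with short and long access. With no fold threshold these were 155 and 141, then 234, 405, 261, 178 and 416, then 3, and 225 and 288.

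Without the nucleus accumbens 3 were higher than each other region, 101 were called with long access and 1 passed for the short access difference. Without the lateral hypothalamus 28 were higher, 4 higher than each and 0 for that difference, which was 1 without the septum. Without the ventral tegmental area 24 were higher and 16 lower, 2 higher than each, and 37 and 43 called with short and long access. Without the medial prefrontal cortex 55 were lower, 6 higher and 7 lower than each, 104 and 110 called with short and long access, and 4 and 21 for the short and long access differences.

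Of the alternatives chosen after seeing the data, leaving out amygdala array 3 and medial prefrontal cortex array 3 gave 0 higher and 1 lower than each region, and the actin 3' to 5' difference as a covariate moved no count by over 1.5 times. Where not named, the cause was not tested. Signal near the floor limits the size of differences.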
